A study of Homo sapiens with 6 samples.

Results

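The cytosolic ribosomal protein genes encode the protein part of the ribosome, and their splicing was followed in SKNBE2, a neuroblastoma cell line of human origin whose MYCN gene is amplified. Members were the genes whose symbols are RPL or RPS followed by a number, with an optional final A, L or X, together with RPLP0, RPLP1, RPLP2 and RPSA. Of 2314 splicing events listed for 80 such genes, 1109 events in 79 genes were covered in all 6 libraries, out of 304901 covered events in the whole table. Covered meant that each library had 10 or more reads for the event and that its quality score was LOW, OK or SOK. RPL3L, the striated-muscle paralog of RPL3, had no covered event. The covered events were 58 exons, 353 introns, 307 alternative acceptors (3′ splice sites) and 391 alternative donors (5′ splice sites).

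The study compared 3 Control libraries with 3 libraries from cells kept for 4 days in 250 µM DFMO (difluoromethylornithine), which blocks ornithine decarboxylase and with it polyamine synthesis. All cells were of the 1 line, and the labels do not say what the Control cells received instead of DFMO. The labels do not say whether the replicates were separate cultures, so the spread between libraries behind the p values may be technical. For most introns, acceptors and donors that spread was taken from all events of the class, as given below. Errors after ± are SD over 3 libraries, an SE is named where given, and coordinates are GRCh38.

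The ribosome has a small subunit, which decodes the mRNA, and a large subunit, which joins amino acids and carries the P stalk that recruits translation factors. Most ribosomal protein mRNAs begin with a terminal oligopyrimidine (TOP) tract, a run of C and T at the transcript's start through which mTOR signalling controls their translation, and their introns are short, efficiently removed and often host snoRNAs. Several of these genes are known to adjust their own splicing when their protein is in excess. Reduced dosage of many of them causes Diamond-Blackfan anaemia.

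The sequences that carry the main splicing result are those of RPS24, whose product is a small subunit protein and which ends in alternative forms. A 22-nt exon at chr10:78040204-78040225 (plus strand, GENCODE 29) begins with an in-frame stop codon. In the annotated form with the exon (RPS24-202) the coding sequence has 390 nt, or 130 codons, before that stop. The form without it (RPS24-214) has 399 nt, or 133 codons, and ends at a stop in the last exon at chr10:78040624-78040626. Below, capitals mark the stop codon, and each junction starts with the last 15 bases of the exon before.
RPS24 22-nt exon: TGAgctggagattggatcacag
RPS24 junction with the 22-nt exon: ggtgctggcaaaaagTGAgctggagatt
RPS24 junction without the exon: ggtgctggcaaaaagccgaaggagTAA

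Start-site windows are shown because the genes rose together in their spliced reads, described further on. In RefSeq windows of 30 bases, 15 on each side of an annotated start (GRCh38.p14), the longest run of C and T was sought on the transcribed strand. Of 79 member genes, 63 had at least 1 window, and 51 of the 63 (81.0%) had a run of at least 8 bases at 1 or more of their starts. Over all 27305 genes with a window the share was 16.5%. Capitals mark the run in RPS3 and RPS18, at the top of the range of differences, in RPS24, and in RPS27L, a stress-induced paralog of RPS27.
RPS3, chr11:75399503-75399532, plus strand: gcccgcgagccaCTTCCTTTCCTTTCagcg
RPS18, chr6:33272060-33272089, plus strand: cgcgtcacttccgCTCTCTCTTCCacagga
RPS24, chr10:78033848-78033877, plus strand: cggcgaatcgtggTTCTCTTTTCCTCCTTg
RPS27L, chr15:63157463-63157492, minus strand: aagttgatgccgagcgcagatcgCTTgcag

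Event reads, a sum over all entries in which 1 read may enter several times, numbered 77648922 to 103250467 per library. All 10 noradrenergic neuroblastoma markers, MYCN among them, had spliced intron reads in every library, and no leukocyte or endothelial marker had any covered intron. The summed level of the noradrenergic markers was 175 to 181 RPM (reads per 1e+06 event reads) in Control and 195 to 197 with DFMO, and its part in the results was not tested. Of the other marker lists, 2 of 7 mesenchymal genes (VIM, SNAI2) and 1 of 4 epithelial genes (KRT8) were measured, at sums of 3.34 to 3.45 and 0.245 to 0.353 RPM in Control and 3.29 to 3.92 and 0.348 to 0.446 with DFMO.

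Ribosomal protein genes took a larger share of the reads with DFMO. Their events held 6.14%, 5.97% and 5.87% of all event reads in Control replicates 1, 2 and 3, and 7.09%, 7.12% and 7.11% in the DFMO replicates. The groups did not overlap. These are shares of a total, so a larger share for one set of genes leaves less for the rest. In bulk RNA, more cells of a kind and more RNA per cell cannot be told apart.

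The table holds no gene counts, so expression was approximated per gene by the spliced reads of its introns: the mean over introns of log2(1 + RPM). Spliced reads here are the part of an intron event's reads that its percent assigns to splicing, not the junction reads alone. For the RPS24 intron called below they were 1690 in Control replicate 1, against 1526 junction reads. The measure covered 78 members. With DFMO, 70 of the 78 rose, 1 fell and 7 did not pass an adjusted p of 0.05 in limma, fitted and adjusted over all 9817 genes. Over all those genes, 20.9% rose and 27.0% fell. The median log2 difference of the members was 0.22, or 1.17-fold, against -0.01 for all genes. In each of the 70 genes that rose, no Control library reached the level of any DFMO library, as in 2036 of all 2055 genes that rose. No member reached 1.5-fold, which 0.102% of all genes reached upward and 0.122% downward.

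**Figure D1:**
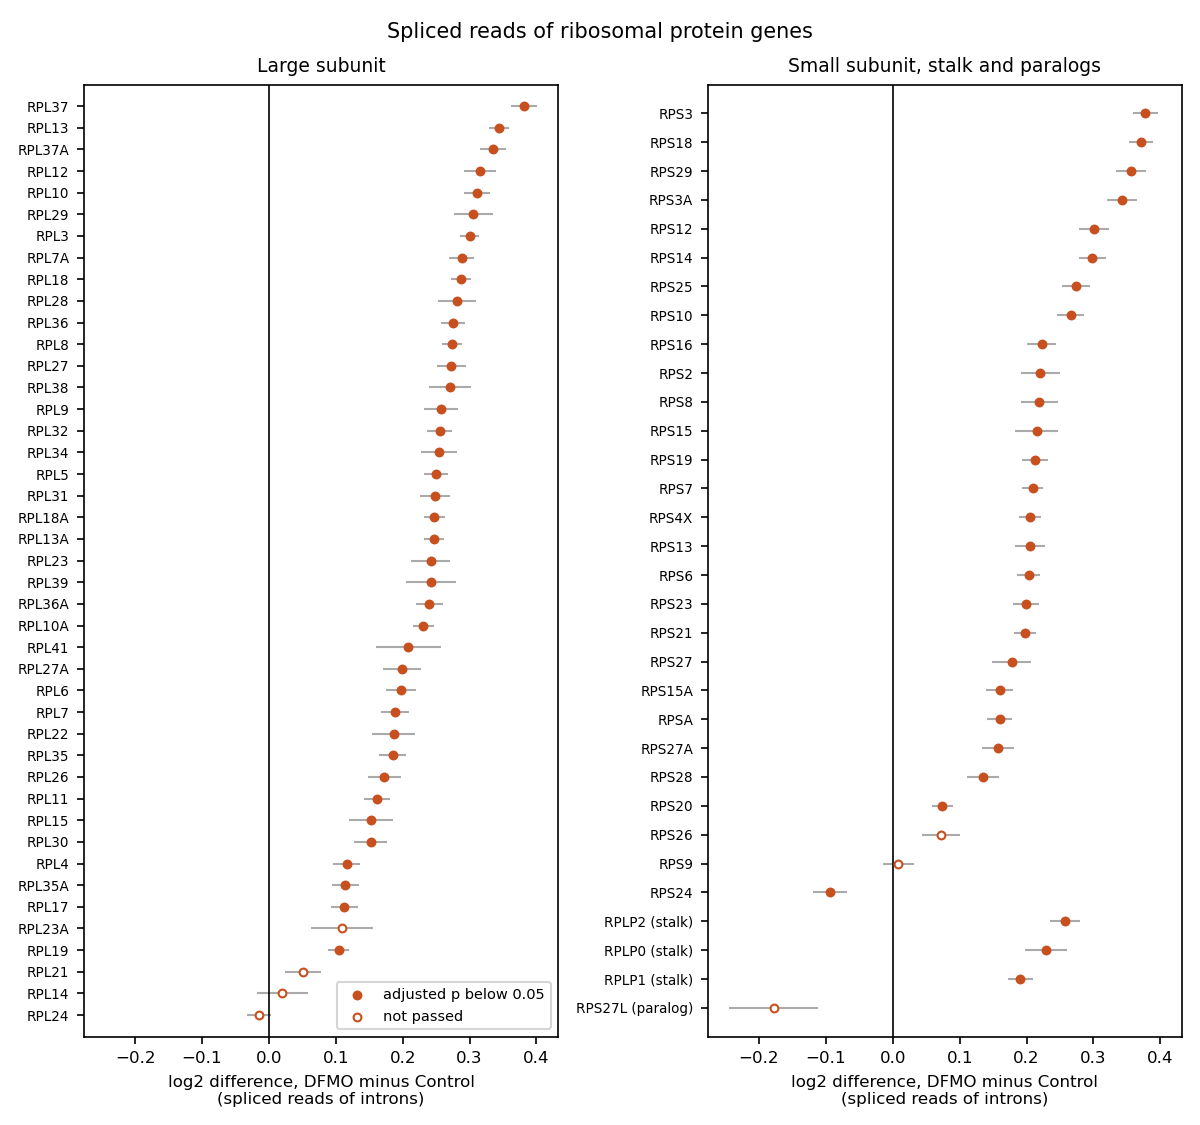
Log2 difference, DFMO minus Control, of spliced intron reads for 75 of the 78 ribosomal protein genes, by subunit, with bars of 1 SE. Filled points passed an adjusted p of 0.05 in limma. All points but RPS27L, RPS24 and RPL24 lie to the right of 0, and the highest lie near 0.38.

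Both subunits took part in the rise. In the small subunit, 28 of 31 genes rose and RPS24 alone fell, with a median of 0.21. In the large subunit outside the stalk, 39 of 43 rose and none fell, with a median of 0.24. The highest differences were those of RPL37, a zinc-binding protein of the large subunit, RPS3, which lines the mRNA entry channel, and RPS18 in the head of the small subunit.

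RPL37 had log2 levels of 5.83, 5.81 and 5.78 in Control and 6.20, 6.20 and 6.16 with DFMO, a 1.30-fold rise (log2 0.38, SE 0.02, adjusted p = 1.3e-05). RPS3 went from 6.83, 6.78 and 6.80 to 7.20, 7.19 and 7.16 (log2 0.38, SE 0.02, adjusted p = 1.2e-05). Each group was tight, and the gap between groups was several times the spread within either. RPL19, a large subunit protein, and RPS20, in the head of the small subunit, were the lowest of those that rose, at log2 0.10 (SE 0.02) and 0.07 (SE 0.02).

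All members of the P stalk and of the 5S ribonucleoprotein rose. RPLP0, the stalk's base, and its partners RPLP1 and RPLP2 rose by log2 0.23, 0.19 and 0.26. RPL5 and RPL11, which bind the 5S rRNA and, when free, the p53 regulator MDM2, rose by 0.25 and 0.16. Of 21 genes mutated in Diamond-Blackfan anaemia, 19 rose, RPS24 fell and RPS26 did not pass (log2 0.07, SE 0.03, adjusted p = 0.068). Their median was 0.19.

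Of the 5 genes reported to regulate their own splicing, RPL3, RPL12, RPS3 and RPS13 rose, by log2 0.30, 0.32, 0.38 and 0.21. RPS26 was the one that did not. RPL3, at the peptidyl transferase centre, had Control levels of 6.08, 6.07 and 6.08 and DFMO levels of 6.39, 6.36 and 6.38, so the groups lay well apart.

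The other members that did not pass were RPS27L, RPL24, RPS9, RPL14, RPL21 and RPL23A. RPS27L, a p53 target, had log2 levels of 2.36, 2.24 and 2.08 in Control and 2.02, 2.01 and 2.11 with DFMO, and the groups overlapped (log2 -0.18, SE 0.07, adjusted p = 0.059). RPL24, which forms a bridge between the subunits, was at log2 -0.02 (SE 0.02, adjusted p = 0.52). Its levels of 5.62, 5.57 and 5.60 in Control and 5.58, 5.58 and 5.57 with DFMO differed by less than the spread of the Control libraries.

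The 51 measured members with a run of at least 8 pyrimidines at a start had a median difference of 0.21, and the 12 with shorter runs only had 0.26. Other mRNAs with a TOP tract, most of them for elongation and initiation factors, gave 12 of 14 that rose and 1 that fell, with a median of 0.17. NPM1, a nucleolar chaperone of ribosome assembly named here after its value was seen, was the gene that fell (log2 -0.23, SE 0.02).

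Genes that build the ribosome or serve beside it were counted from their own lists, and whether they differ from the members was not tested. Mitochondrial ribosomal proteins, which serve a separate ribosome, gave 5 that rose and 40 that fell of 76, with a median of -0.10. Ribosome assembly factors gave 2 that rose and 14 that fell of 27, with a median of -0.08. In translation initiation and its control, 4 of 16 rose and 7 fell. The only genes of that list to reach 1.5-fold were EIF4A2, a helicase that unwinds mRNA leaders, at log2 0.87 (SE 0.02), and EIF4G2, a scaffold for cap-independent initiation, at -0.60 (SE 0.02). Among ribosomal proteins that the symbol rule leaves out, 3 of 7 rose, FAU and RACK1 among them, and RPL22L1 fell (log2 -0.42, SE 0.02). RPL22L1, a paralog that RPL22 is known to repress, was picked after its value was seen.

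Exon events, the main form of this proxy, measured 33 members and gave 21 that rose, 2 that fell and 10 that did not pass, with a median of 0.20. Over all 9232 genes so measured, 20.5% rose and 24.9% fell. Among the largest rises were RPL15 (log2 0.42, SE 0.05), RPS24 (0.32, SE 0.02), RPL8 (0.32, SE 0.03) and RPL38 (0.31, SE 0.05). The RPL15 figure rests on 1 event with a log2 level of 1.72 ± 0.09 in Control, and over its 3 introns the rise was 0.15 (SE 0.03). The lowest among those that rose were RPL35A at 0.14 and RPS20 at 0.16.

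RPLP0 and RPL37A fell by exon events, by 0.40 (SE 0.06) and 0.27 (SE 0.06), and rose by introns, by 0.23 (SE 0.03) and 0.33 (SE 0.02). For RPLP0 the exon figure rests on 1 event with a log2 level of 1.49 ± 0.12 in Control, against 7.06 ± 0.07 over its 7 introns. That of RPL37A rests on 2 events at 1.08 ± 0.06 in Control, against 6.79 ± 0.03 over its 3 introns. Among 32 members measured both ways, 26 had the same sign. With constitutive exons only (mean inclusion over 95%), 19 of 23 members rose and none fell. With no filter on the score, 54 members were measured, of which 20 rose and 4 fell, and their median was 0.053.

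Of the 1109 covered events, 92 had a mean percent between 5 and 95 (6 exons, 21 introns, 15 acceptors and 50 donors), called intermediate below. That is 8.30% of the member events, against 5.97% of all covered events. Another 130 lay outside that range with a mean of at least 10 reads per library of the rarer form (4 exons, 110 introns, 4 acceptors and 12 donors), called rare-form below. The other 887 had too few reads of the rarer form to test. The 222 tested events lay in 66 genes.

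Among the 92 intermediate events, 4 were called higher and 2 lower with DFMO, at an adjusted p below 0.05 and a difference of at least 10 points. Over all 18208 intermediate events, 1.76% were called higher and 1.01% lower. Among the 130 rare-form events, called at an adjusted p below 0.05 and at least 1.5-fold in odds, 1 was higher and 8 were lower, against 4.33% and 2.28% of all 3463. The called events were in RPS24, RPL26, RPL41 and RPL15 in the first set, where RPL26 and RPL15 each count in both directions through their mirrored donors, and were introns in the second. In the fits of introns, acceptors and donors, limma took the spread of most events from the trend over all events of the class (an infinite prior), so the event's own spread had little weight. Without that trend no intermediate member event and 3 rare-form ones were called, and a quasi-binomial test called none in either set, with 15 members of each at an unadjusted p below 0.05.

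RPS24 had the lowest adjusted p among member events. The event that was called is the 3310-nt intron at chr10:78037305-78040614, which contains the 22-nt exon. Its deposited percent retained was 10.8%, 9.87% and 10.5% in Control and 23.1%, 23.9% and 24.5% with DFMO (adjusted p = 1.2e-32). The groups lay far apart, and with any 1 library left out the adjusted p stayed at or below 3.2e-18. It was 0.095 without the trend and 0.25 by the quasi-binomial test, and the call was also lost on a percent scale.

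The reads at the ends of that intron were unbalanced. Its 5′ end had 10 to 52 reads per library and its 3′ end 300 to 479, and the spliced reads it is scored against are those that skip the 22-nt exon. The skipping reads were 17.96, 18.2 and 18.1 RPM in Control and 8.83, 7.69 and 8.11 with DFMO, a 2.21-fold fall. Reads spliced into the 22-nt exon were 103, 102 and 99.7 RPM in Control and 133, 128 and 127 with DFMO, a 1.27-fold rise. Reads at the 3′ end of the intron rose less, 1.18-fold, from 3.89 ± 0.14 to 4.60 ± 0.22 RPM.

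The ratio of the junctions uses the same skipping reads as the deposited percent, so it is not separate support for the call. It was also chosen after these values were seen. For each 100 reads into the exon there were 17.5, 17.9 and 18.2 skipping reads in Control and 6.67, 5.99 and 6.41 with DFMO. That is 2.81-fold less skipping, or log2 -1.49 (SE 0.05). The groups were separate, and an exact permutation test, two-sided, gave p = 0.1, the smallest that 3 libraries against 3 can give. Reads out of the exon numbered 27.2 ± 2.1 and 30.5 ± 0.2 RPM, and against them the log2 ratio was -1.31. The junctions differ in mappable positions, so the ratios are not shares of transcripts. The splice upstream of this region rose 1.17-fold, from 188 ± 4 to 221 ± 6 RPM.

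**Figure D2:**
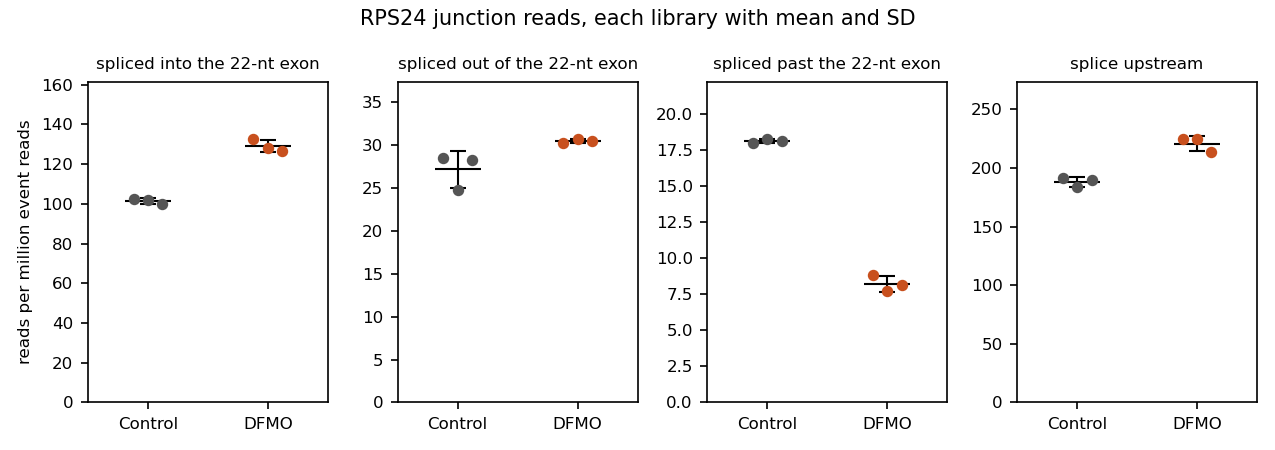
RPS24 junction reads in RPM in each Control and DFMO library (points), with mean and SD (bars), for splicing into, out of and past the 22-nt exon and for the upstream splice. Reads past the exon fall from about 18.1 to 8.21, while reads into it rise from 101 to 129.

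The exon's own entry does not show this. It pairs the 22-nt exon with another upstream exon, so the skipping junction is not among its reads, and its percent was near 100 in every library. In all, 12 events of RPS24 were covered, and the other 11 lay outside the tested ranges. The fall of RPS24 by introns, from log2 levels of 5.79, 5.75 and 5.76 to 5.73, 5.66 and 5.64, takes in the skipping junction: without introns of at least 5% mean retention, the gene rose by 0.18 (adjusted p = 0.00071). That fall was lost without Control replicate 1, DFMO replicate 2 or DFMO replicate 3, when the adjusted p reached 0.066.

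Donors were called in RPL26, RPL41 and RPL15. All of these calls were lost with no variance trend, by the quasi-binomial test and on a percent scale. Of the 50 intermediate donors of members, 3 were called higher and 2 lower, against 0.997% and 0.930% of all 3010. RPL26, a large subunit protein near the exit tunnel, has a main donor at chr17:8383157 and a further one 295 nt downstream at chr17:8382862, each annotated in a coding transcript. The main donor took 72.7%, 64.8% and 78.1% of the reads in Control and 73.4%, 91.8% and 94.9% with DFMO. The downstream donor went from 25.4% ± 5.6 to 12.2% ± 10.3. DFMO replicate 1 lay among the Control libraries, so the groups overlapped, and the call (adjusted p = 0.000197) was lost without Control replicate 1 or DFMO replicate 3 (adjusted p up to 0.20).

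RPL41 encodes the smallest ribosomal protein. A donor at chr12:56116863, 64 nt beyond its first annotated one and not annotated itself, took 67.1%, 61.6% and 62.0% of this event's reads in Control and 79.0%, 76.0% and 80.2% with DFMO (adjusted p = 0.022). The groups did not overlap, and the event had 105 to 203 reads per library. The call was lost when any of 4 single libraries was left out (Control replicates 2 and 3, DFMO replicates 1 and 3).

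RPL15 encodes a large subunit protein mutated in Diamond-Blackfan anaemia. Its donor at chr3:23917239 rose from 70.3%, 74.6% and 69.0% to 84.2%, 79.7% and 80.3%, and the alternative 56 nt downstream, at chr3:23917295, fell by the same amount. Both lie in coding transcripts of GENCODE 29. The groups did not overlap. The adjusted p was 0.049, and leaving out any 1 of the 6 libraries took it above 0.05, up to 0.27.

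A pair of events missed the threshold with large differences. An acceptor of RPS25, a small subunit protein used by some viral leaders, lies 115 nt upstream of an annotated one at chr11:119017433 and is itself unannotated. It took 14.6%, 9.74% and 9.42% of reads in Control and 0.69%, 0.81% and 0% with DFMO, from 110 to 148 reads per library (adjusted p = 0.067). The 23-nt exon of RPL41 at chr12:56117189-56117211 was included at 88.1% ± 6.2 in Control and 98.8% ± 1.4 with DFMO (adjusted p = 0.051). In both, no library of one group reached the other.

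**Figure D3:**
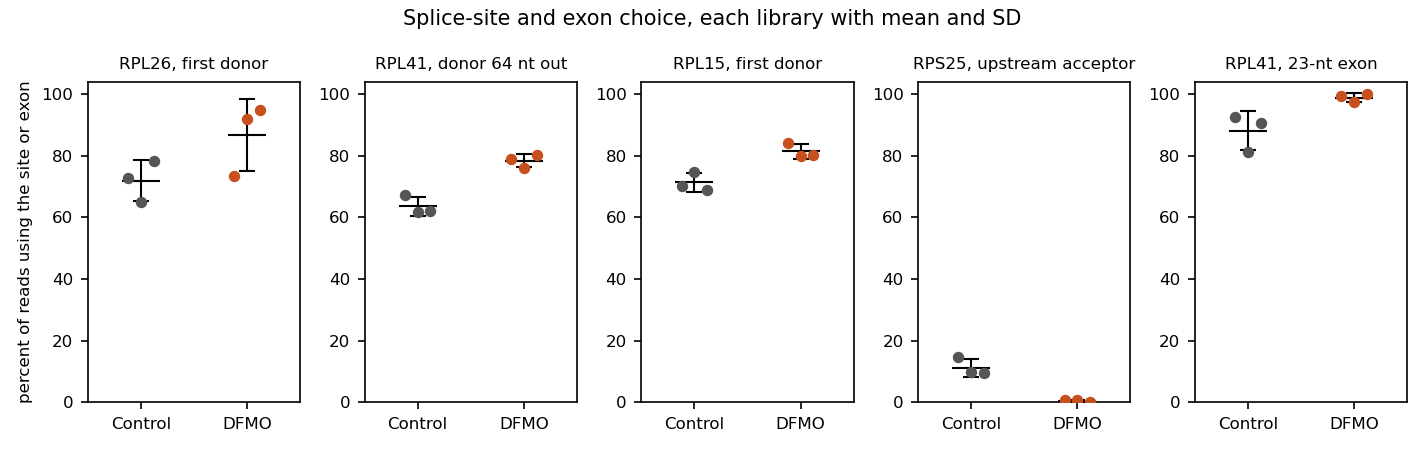
Percent of reads using a splice site or exon in each Control and DFMO library (points) with mean and SD (bars). RPL26 overlaps between groups, and in both RPL41 events, RPL15 and the RPS25 acceptor the groups are apart.

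No exon passed in limma among the 6 intermediate ones of members, of which 1 had an unadjusted p below 0.05, while 4.47% and 1.25% of all 7500 passed higher and lower. The 11-nt exon of RPS3 at chr11:75404020-75404030 stood at 81.4% ± 0.5 and 87.7% ± 3.6 (adjusted p = 0.43). Cassette exons of RPL22 (78.3% ± 3.9 and 76.8% ± 5.1) and RPS15 (34.5% ± 14.98 and 36.5% ± 7.7) differed by less than their spread. Of the 15 intermediate acceptors none passed in limma, with 4 at an unadjusted p below 0.05, while 0.897% and 0.872% of all 4015 passed higher and lower.

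Intron retention in these genes leaned lower with DFMO. Of 131 member introns tested in both sets, 19 passed lower and 2 higher, while 4.77% and 5.27% of the 4596 introns of all genes did so. In all, 64.1% of the member introns had a lower fitted value, against 45.6% of all tested introns. Medians of the log2 odds difference were -0.13 and 0.07. The 19 lower introns lay in 14 genes. In each intron no DFMO library reached a Control library, which selection by the same fit favours. The share without overlap over all introns was not counted. Of the 19 introns, 9 counted as balanced (deposited p over 0.05 for balance in every library), and 9 passed lower when the fit held only such introns. That p does not measure whether the ends had equal reads. In Control replicate 1, an intron of RPL10 that counted as balanced had 326 and 120 end reads. The RPL10A intron, which did not count as balanced, had 338 and 286. With no variance trend 3 member introns passed lower, and by the quasi-binomial test none did.

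**Figure D4:**
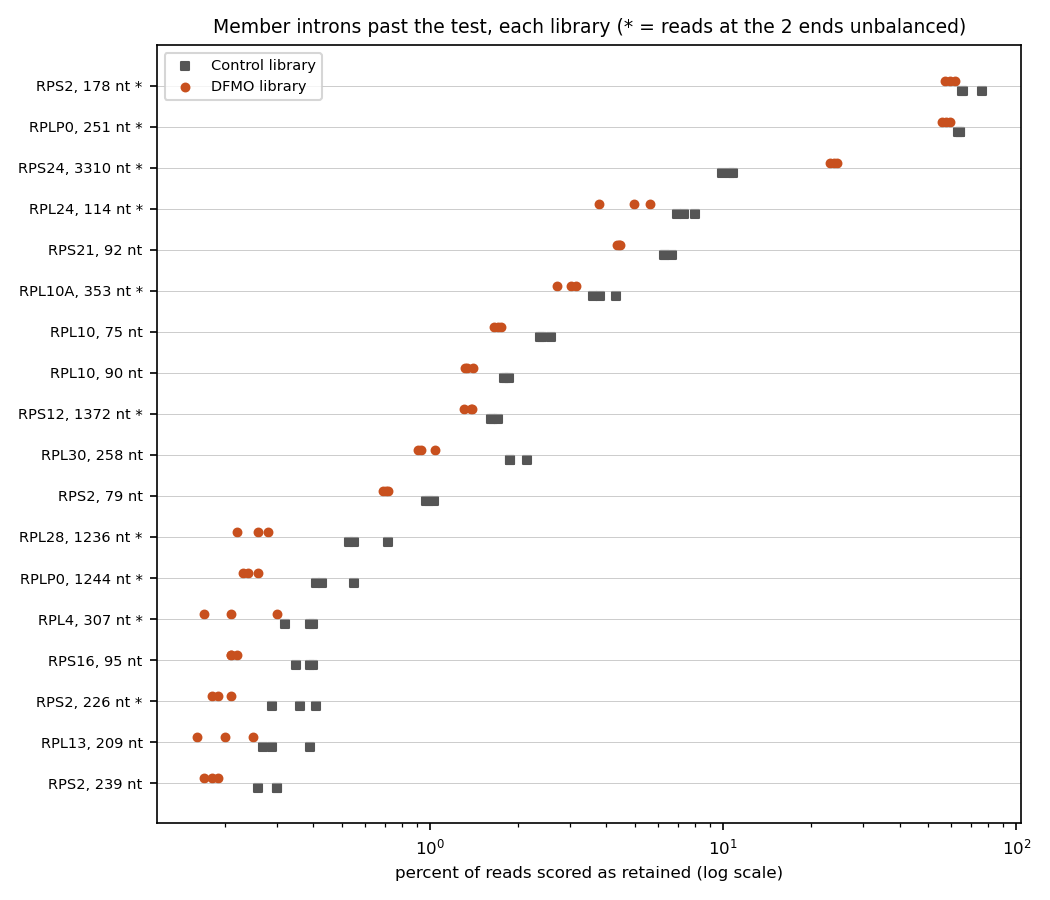
Percent retained (log scale) in each library for 18 of the 21 member introns that passed, named by gene and length, with squares for Control and circles for DFMO. DFMO lies left of Control in all of these but RPS24, and an asterisk marks introns not balanced by the deposited p.

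RPS21, a small subunit protein, had the one intermediate intron with balanced ends that passed. This 92-nt intron, the last of its transcript at chr20:62388365-62388456, was retained at 6.35%, 6.68% and 6.28% in Control and 4.43%, 4.35% and 4.45% with DFMO, from at least 9898 reads per library (adjusted p = 1.2e-13). The ends of the intron are shown on the plus strand (GENCODE 29), with the splice-site dinucleotides in capitals.
RPS21 intron, first bases: GTaaggttg
RPS21 intron, last bases: tccttttcccctggttctAG

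RPL30, a large subunit protein that binds RNA at a kink-turn, had a 258-nt intron at chr8:98045089-98045346 with 2.15%, 1.88% and 1.88% in Control and 0.93%, 0.91% and 1.04% with DFMO (adjusted p = 6.6e-11). This was a 2.07-fold fall in odds, the largest among the balanced introns. RPL10, which joins the large subunit in its last cytoplasmic steps, had 2 such introns. That of 75 nt at chrX:154400627-154400701 went from 2.46% ± 0.11 to 1.70% ± 0.05, and that of 90 nt at chrX:154399397-154399486 from 1.82% ± 0.04 to 1.35% ± 0.04.

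RPS2, at the mRNA entry, had 4 introns among the 19, more than any other member. Its balanced ones, of 79 nt and 239 nt, went from 0.997% ± 0.031 to 0.71% ± 0.02 and from 0.29% ± 0.02 to 0.18% ± 0.01. The 226-nt intron, which hosts SNORA10, went from 0.35% ± 0.06 to 0.19% ± 0.02. The first intron, in the 5′ UTR, was at 69.1% ± 6.3 and 59.4% ± 2.5, with unbalanced ends.

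RPL28 (0.60% ± 0.10 to 0.25% ± 0.03) had the largest fold of all, 2.35 in odds, at an intron with unbalanced ends. RPLP0 had its second intron at 0.46% ± 0.08 and 0.24% ± 0.02 and its first, in the 5′ UTR, at 63.8% ± 0.7 and 57.6% ± 1.9. The first intron of RPLP0 had 0 or 1 reads per library at its 5′ end and 1090 to 1439 at its 3′ end. Its percent thus rests almost only on reads at the 3′ end. The second had 72 to 173 reads at the 5′ end and 0 to 7 at the 3′ end. RPL4 (0.37% to 0.23%), RPS16 (0.38% to 0.21%) and RPL13 (0.32% to 0.20%) were lower at under 1%. RPL10A (3.91% to 2.97%), RPS12 (1.66% to 1.36%) and RPL24 (7.45% to 4.79%) were lower at over 1%. Of the introns named in this paragraph, only those of RPS16 and RPL13 counted as balanced by the deposited p. With 1 library left out, 13 of the 19 passed each time. RPL13 was lost without Control replicate 1 or DFMO replicate 2 (adjusted p up to 0.19), RPL4 without Control replicate 1 or DFMO replicate 3 (0.076), RPS12 without DFMO replicate 1 or 2 (0.092) and the 178-nt intron of RPS2 without Control replicate 3 or DFMO replicate 1 (0.25). The intron of RPL24 passed in that check only without DFMO replicate 3.

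The percent sets reads at the intron's ends against spliced reads. The 19 lower introns were chosen by that ratio, so their end and spliced reads are a description. In 18 of the 19 lower introns the end reads in RPM were fewer with DFMO, with a median of 0.77-fold, and in 18 the spliced reads were more, with a median of 1.20-fold. RPS21, for one, went from 15.6 ± 0.5 to 12.03 ± 0.18 RPM of end reads and from 113 ± 3 to 131 ± 2 spliced reads. The exceptions were the end reads of RPS12 (4.45 ± 0.29 and 4.52 ± 0.12) and the spliced reads of RPL24 (6.89 ± 0.27 and 6.72 ± 0.34), which differed by less than their spread.

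Over all 353 covered member introns together, each event's reads were divided by its percent into a retained and a spliced part. These parts are not the end and junction reads given above. Both were larger with DFMO, and the spliced part by more. The retained part was 202 to 210 RPM in Control and 213 to 214 with DFMO, while the spliced part was 39294 to 41255 and 47268 to 47702. The retained share was 0.504% to 0.523% in Control and 0.447% to 0.450% with DFMO. Over all covered introns of all genes the share was 1.05% to 1.13% in Control and 1.10% to 1.20% with DFMO, and those groups overlapped.

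The median retention of a member intron was 0.08% ± 0.01 in Control and 0.07% ± 0.01 with DFMO, which differ by less than the spread. The mean was 2.24% ± 0.02 and 2.13% ± 0.03, against 1.15% ± 0.05 and 1.24% ± 0.07 over all 88789 covered introns. For the 247 member introns with balanced reads the mean was 0.163% ± 0.012 and 0.152% ± 0.016.

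The introns that passed lower were short, with a median of 226 nt against 394 nt for all 131 tested and 490 nt for the 353 covered. A snoRNA lay in 5 of the 19, in 26 of the 131 and in 57 of the 353 in GENCODE 29. These are SNORD68 in RPL13, SNORD16 in RPL4, SNORD101 in RPS12, and SNORA10 and SNORA64 in RPS2. These figures describe the set, and no test was made.

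The genes reported to regulate their own splicing gave few testable events and no call. RPL3 had 16 covered events, of which 2 introns were tested, at 0.10% ± 0.05 and 0.08% ± 0.03 (377 nt) and at 0.37% ± 0.05 and 0.34% ± 0.03 (619 nt). In RPL12 the 476-nt intron stood at 0.68% ± 0.08 and 0.51% ± 0.05, with groups apart and an adjusted p of 0.054. RPS13 had 2 tested introns and RPS3 had 2, all with adjusted p over 0.48, and RPS26 had none. Of the 5S ribonucleoprotein genes, RPL5 had 1 tested event and RPL11 had 4, and none passed. RPLP1 had 2 tested introns that did not pass, and none of the 35 covered events of RPLP2 could be tested.

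Ribosomal protein genes have many processed pseudogenes and some near-identical copies, and how the authors' counting placed reads that match both is not stated in the labels. Single-gene values carry that uncertainty.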

How the data were processed

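Stranded mRNA libraries of SKNBE2 cells, 3 Control and 3 DFMO, were sequenced as single reads of 100 nt, per the labels' protocols. The authors deposited, per the file headers, a percent for each event and library (inclusion of an exon, retention of an intron, use of a splice site) and a quality text with a coverage score, read numbers and, for introns, the balance of end reads. The build is GRCh38, per the submitters' processing notes. The sources used here give no aligner or quantifier. Recomputed from the reads, 100% of the percents lay within 0.5 points. For introns this is no check, because their reads of each form were divided by the percent.

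Events of all genes scored LOW, OK or SOK with 10 or more reads in all 6 libraries were kept. Each event's log2 odds (0.5 added to the reads of each form) entered limma 3.58.1 under R 4.3.3 (robust, variance trend on the expected counting variance, no covariate), and p values received the Benjamini-Hochberg adjustment inside each class, 4 in all. For the gene measure, reads were scaled to 1e+06 event reads, 1 was added before log2, and fits had a mean-variance trend. Its intron form used the part of each intron event's reads that the percent assigns to splicing. The exon form of this measure was the planned one, and its intron form became a result of its own after the data were seen. Figures and annotation used Python with GENCODE 29 (79 of 79 member symbols matched) and RefSeq windows. The scripts were tested on simulated data.

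Members and lists were chosen with earlier results of these data known. Named events are all called ones and up to 10 more per fit that passed with groups apart. Named genes are the 5 highest and 5 lowest that passed by exon events, all events of RPS24, the stalk, the 5S ribonucleoprotein, the genes reported to regulate their own splicing, and called genes of other lists. Introns beyond these, the genes at the ends of the intron measure and the near-misses were picked after their values were seen. The event reads per library, 77648922 to 103250467, count some reads more than once, so no counting interval is given. Alternatives covered offsets, the trend, a quasi-binomial test, filters, scaling, a replicate block and leaving out each library. Values of some single genes are not reported here, while counts and medians hold all members.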

Additional observations from a re-analysis of the deposited data

How the results depend on the processing

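Calls on single events depended on how the spread was estimated. With no variance trend, 0 intermediate member events were called higher and 0 lower (4 and 2 as reported), 0 rare-form events higher and 3 lower (1 and 8), and 0 introns passed higher and 3 lower (2 and 19). The quasi-binomial test gave 0 in each of these counts. A percent scale, run on intermediate events only, gave 0 and 0 calls, and 0 member events passed. The joint count then had 1 intron passing higher, a rare-form one kept from the main fit. With offsets of 0.1 and 1, 1 intermediate event was called lower. Introns with balanced reads only left 4 rare-form events called lower, 1 intron passing higher and 9 lower. A minimum of 30 or of 3 reads of the rarer form gave 0 rare-form events called higher and 1 intron passing higher. Leaving out each library gave 2 to 4 intermediate events higher and 1 to 2 lower, 0 to 3 rare-form events higher and 6 to 11 lower, and 1 to 4 introns passing higher and 15 to 21 lower. The 3 and the 4 came without Control replicate 3.

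Replicate numbers did not pair the libraries (correlations of -0.05 to -0.002), and the fit with the replicate number as a block called 4 intermediate events higher and 1 lower, 1 rare-form event higher and 7 lower, and had 71 members rising by introns.

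By exon events, 21 members rose and 2 fell as reported. No filter on the score gave 4 that fell and a median of 0.053, constitutive exons only gave 0 that fell, and introns gave 70 that rose and 1 that fell. Introns turned the sign of RPL22 (0.19), RPL37A (0.33), RPLP0 (0.23), RPS15A (0.16), RPS2 (0.22) and RPS24 (-0.093). Leaving out 1 library gave 2 to 4 that fell and turned RPL39L (0.014 and 0.048, over a range of -0.063 to 0.048) and RPS2 (0.0059, over -0.087 to 0.0059). By introns, the median was 0.25 with median-ratio scaling, 0 members fell with that scaling or with introns under 5% retention, and 0 to 2 fell with 1 library left out. The signs of RPL24 (0.014, median-ratio scaling), RPL14 (-0.0013 with 0.1 added, -0.0042 and -0.0036 with a library left out, over a range of -0.0042 to 0.068), RPS9 (-0.0098 and -0.00028, over -0.0098 to 0.027) and RPS24 (0.18, introns under 5% retention) turned. In every alternative run, 68 to 74 members rose by introns.

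The difference in retention, -0.0033 points by the median, was -0.107 by the mean and -0.0633 over all reads together. RPS24 skipping was -1.31 against reads out of the exon and -1.37 against the upstream splice, and -1.53 to -1.45 with each library left out. The intron form of the gene measure, the RPS24 junction ratio, the joint intron counts and the pooled retention were chosen after seeing the data. The causes of these changes were not tested. Few reads of the rarer form limit the rest: 887 of 1109 covered member events could not be tested.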
